A study of Mus musculus with 8 samples.

Results

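The genes described here are 50 mouse axon guidance genes, taken across all arrays of the study. They are 12 Eph receptors, 8 ephrins, 3 Slits, 2 Robos, 7 class 3 semaphorins, 9 plexins, 2 neuropilins, netrin 1 (Ntn1), 5 netrin receptors and the adhesion molecule Nrcam. They were chosen by name: every non-control probe whose gene name in the scanner files was that of a member was taken, and each gene was represented by its probe with the highest mean level. This gave 73 probes for the 50 genes, out of 35072 gene names on the array, and 19 genes had 2 or 3 probes. Of the 50 genes, 49 were among the 29544 gene names well above background on at least 1 array, and Epha8 was not. On all 8 arrays 40 of them were well above background, counted on the 1 probe taken for each gene.

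Guidance cues were named for their action on growing axons, which they attract or repel, and the same families direct cell sorting, vessel growth and epithelial branching. Eph receptors are tyrosine kinases that bind membrane-bound ephrins on neighbouring cells, Slits are secreted ligands of Robo receptors, and class 3 semaphorins are secreted ligands of plexins, mostly with a neuropilin as the binding subunit. Netrin attracts through Dcc and Neo1 and repels through Unc5 receptors. In the mouse kidney, Slit2 and Robo2 are known for keeping the ureteric bud to a single site on the nephric duct, and Sema3a for restraining its branching.

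The study profiled sorted cells of ICR mouse embryos, with 1 array per sample and 8 in all, to follow the precursors of the ureteric bud, the epithelial tube that becomes the collecting system, and to set them against precursors of the nephron. The Hoxb7-GFP reporter marks the nephric duct and the bud that grows from it. Cells positive for it were taken at embryonic stage E8.75 (1 array), from a rostral and a caudal part at E9.5 and at E10.5 (1 array each), and from the ureteric bud at E11.5 (1 array). The labels of E9.5, E10.5 and E11.5 add a selection against Flk1, the endothelial receptor encoded by Kdr, and that of E8.75 does not. The E9.5 and E10.5 cells are called duct cells here, although the labels name their source only by an abbreviation. The other group was Wt1-GFP-positive intermediate mesoderm at E9.5, from a rostral and a caudal part of the embryo (1 array each), with no selection against Flk1 in its labels. Each sample is a sorted population from dissociated embryos, so its RNA is an average over the cells in the gate. The labels do not say how many embryos were pooled.

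A level is the processed signal of a probe divided by the 75th percentile signal of its array, on the log2 scale, so that 0 marks that percentile and a difference of 1 is a factor of 2. Levels of different probes are not on a common scale, and each gene is compared with itself only. The 75th percentile signal ran from 242.9 to 316.7 over a median local background of 25 to 31, 60.6% to 69.2% of the probes of an array were flagged as well above background, and arrays correlated pairwise at r of 0.92 to 0.96. Wt1 itself had levels of -0.20 and -1.94 in E9.5 duct cells, against 4.08 and 4.01 in Wt1-GFP cells, and Ret, the receptor of the bud-inducing signal, had -0.66 and 2.23 in E9.5 duct cells, against -6.12 and -4.92 in Wt1-GFP cells, both not well above background. Pax2 had 5.18 and 5.36, against 2.71 and 1.32. Other checks differed less. Hoxb7 had 2.44 and 2.30 in E9.5 duct cells, against 1.50 and 1.63 in Wt1-GFP cells. Kdr had 1.95 and 1.84, against 2.10 and 2.10, although only the duct cells were selected against Flk1. Endothelial markers were highest at E8.75, where the 12 markers summed to 5.90 on the log2 scale, against 2.83 to 3.46 on the other Hoxb7-GFP arrays and 2.78 to 2.89 in Wt1-GFP cells. All 12 were well above background at E8.75, 8 to 12 on the other Hoxb7-GFP arrays and 8 and 6 in Wt1-GFP cells. Neural markers were highest on the E9.5 rostral duct array, where 13 markers summed to 8.14, against 5.19 to 6.06 on the other 7 arrays. Dcx, a marker of young neurons, had a level of 4.96 on that array and 2.07 on the caudal one, against -0.79 and -2.71 in Wt1-GFP cells.

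Before the levels are read, 4 members need a remark on the probe that represents them. The brightest probes of the receptors Epha5 and Ephb3 had levels of 8.86 to 9.13 and 9.11 to 9.40, with a range over the 8 arrays of only 0.27 and 0.29. Both hold a long run of alternating T and G, which is shown because it sets these probes apart from the other 71. The last 30 bases of each 60-base probe, at chr5:84487348-84487407 and chr16:21223165-21223224 in the mm9 positions of the array design, read as follows, with the run in capitals.
Epha5: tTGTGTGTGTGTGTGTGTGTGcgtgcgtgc
Ephb3: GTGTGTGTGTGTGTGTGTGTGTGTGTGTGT
Of 75 probes on the array with such a run of 16 bases or more, 68 (90.7%) had a mean level of 8 or higher, a level that 177 of all 55663 probes (0.318%) reached. Their median level was 9.13 and their median range 0.36, against -2.92 and 1.62 over all probes, and all 75 were well above background on all 8 arrays.

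Among the other probes, the brightest probe of Plxna2 lies on chromosome 14 in the design (chr14:108739666-108739725) while the gene is on chromosome 1, and that of Dcc lies on chromosome 7 (chr7:68417162-68417221), which is not the chromosome of the gene. These were the only 2 of 73 member probes on another chromosome, as were 63 of 26700 probes (0.24%) over the array. A dimmer Plxna2 probe on chromosome 1 had levels from -2.66 to 0.91, its highest in rostral Wt1-GFP cells, where the bright probe stayed within 3.95 to 4.81 on all arrays. The small differences of Epha5, Ephb3, Plxna2 and Dcc below are therefore those of these probes, and the genes are not read as unchanged. Epha5, Ephb3 and Dcc also count among the 40 genes well above background on all 8 arrays through these probes only. Other Epha5 probes were well above it on 7 and 0 arrays and other Dcc probes on 5 and 7, and Ephb3 had no other probe.

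**Figure D1:**
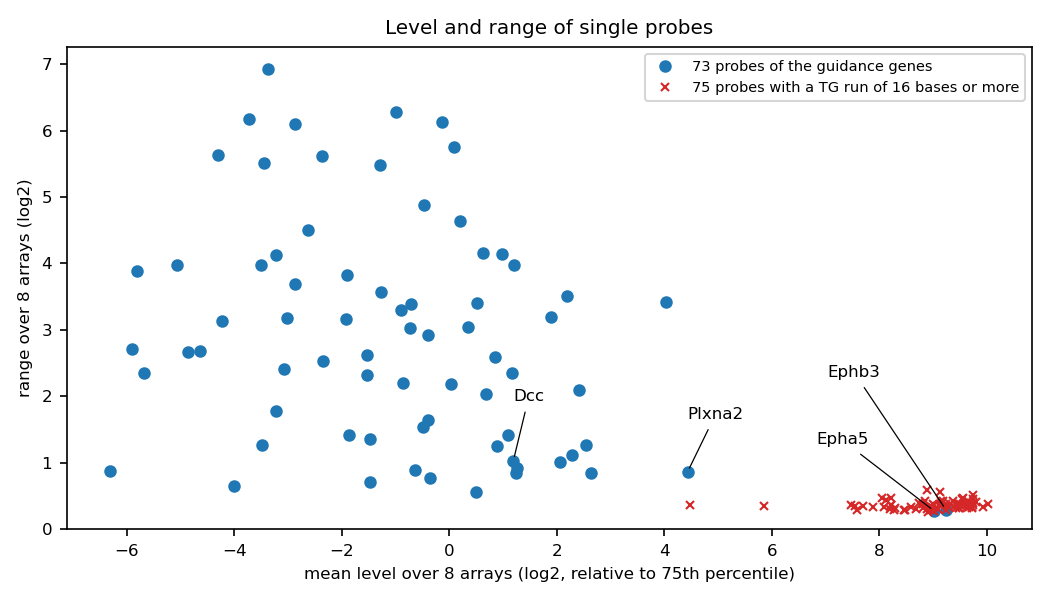
Mean level over the 8 arrays (x axis, log2 relative to the array's 75th percentile) against the range of the level over the same arrays (y axis, log2) for the 73 probes of the guidance genes (circles) and the 75 probes with a TG run of 16 bases or more (crosses). The brightest Epha5 and Ephb3 probes sit among the crosses at a mean level near 9 with ranges of 0.27 and 0.29, apart from the other probes of these genes.

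E9.5 duct cells and E9.5 Wt1-GFP cells were compared first, since the study set ureteric bud precursors against the neighbouring nephron lineage. Nrcam stood 30.4-fold higher in duct cells, Slit2 4.29-fold and Ephb1 3.28-fold. Unc5c was 4.51-fold lower in duct cells, Efnb3 2.48-fold and Epha4 2.08-fold. On the log2 scale the Nrcam difference was 4.93, but 2.90 with normexp background, and 1 of its 2 Wt1-GFP arrays was not well above background. With slide row as a term, that of Unc5c was -0.71, in place of -2.17, and that of Epha4 -0.67, in place of -1.06. At a difference of 1 or more on the log2 scale with no overlap between the 2 arrays of each group, 8 of 49 members (16.3%) were higher in duct cells, against 7.76% of all genes tested, and 3 (6.12%) were lower, against 5.57%. The median difference of the members was 0.03, against -0.05 over all genes, and their median absolute difference was 0.55, against 0.41. In the limma fit with 1 prior variance for all genes, 0 of 49 members passed an adjusted p of 0.05, as did 0% of all genes, while 10 members and 3934 of all genes had an unadjusted p under 0.05. With a prior variance that follows intensity, 3 members passed, all higher in duct cells (Nrcam, Slit2 and Ephb1), against 2.14% of all genes (632).
That call depended on the arrays that carry the error estimate. The count was 0 members when the caudal array of E9.5 or one of the E10.5 arrays was left out, and 1 without the caudal Wt1-GFP array. Slit2 and Ephb1 missed the threshold without any 1 of the 6 rostral or caudal arrays. Both E9.5 duct arrays lay in the first row of the slide and both Wt1-GFP arrays in the second, so slide row and reporter cannot be told apart. Only the E10.5 pair spanned both rows. A slide-row term, here and elsewhere, therefore rests on that 1 pair and is not a measured row effect. With slide row as a further term 0 members passed, and the differences were 4.90 for Nrcam, 2.84 for Slit2 and 1.92 for Ephb1. In sorted populations, fewer cells of a type and less RNA per cell cannot be told apart. Since rostral and caudal samples are different kinds of sample and nothing was repeated, the p-values rest on how far the rostral minus caudal difference varied among the 3 divided populations.

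**Figure D2:**
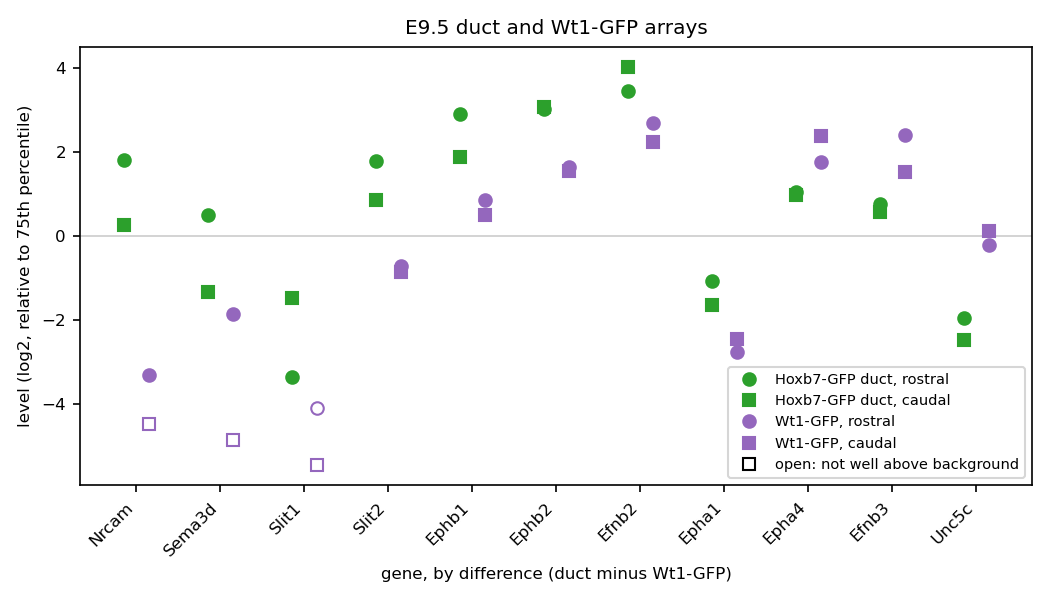
Level (y axis, log2 relative to the array's 75th percentile) of the 11 members that differed by 1 or more with no overlap, for E9.5 duct arrays (green, left of each pair) and E9.5 Wt1-GFP arrays (purple, right), with circles for rostral and squares for caudal samples and open symbols for probes not well above background. Nrcam shows the widest gap, at 1.80 and 0.26 in duct cells against -3.32 and -4.47 in Wt1-GFP cells, and Epha4, Efnb3 and Unc5c lie lower in duct cells.

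The second question of the design was how the Hoxb7-GFP population changes with stage. Most of the differences lay in the first step, where Nrcam, Slit3, Slit2 and Sema3b stood higher at E9.5 than at E8.75, and Plxnd1, Efnb2 and Efna1 lower. At this step the labels also add the selection against Flk1, so stage and sort cannot be told apart. By the same rule of size, 14 of 49 members (28.6%) were higher at E9.5 and 9 (18.4%) lower, against 11.8% and 10.7% of all genes. The 9 include Sema3e, which entered the genes tested through the E8.75 array alone. The median absolute difference of the members was 0.95 at this step, against 0.51 over all genes. No member passed in the plain limma fit, nor did any other gene (0%), although 14 members and 4602 of all genes had an unadjusted p under 0.05. With the intensity trend, Nrcam and Slit2 passed, both higher at E9.5, against 1.24% of all genes (367). Without any 1 of the 4 arrays of E9.5 and E10.5, 0 members passed, and without the E11.5 array 1 did, while 5 and 4 passed without the rostral or the caudal Wt1-GFP array. The E8.75 and E11.5 stages had 1 array each, which the fit assumes to vary like the others.
Fewer members differed at the later steps, where the shares of all genes were lower too. The rule of no overlap is easier to pass with 1 array in a group, as at E8.75 and E11.5, than with 2. Counts are therefore not on a common scale between steps. Between E10.5 and E9.5, 2 members (4.08%) were higher at E10.5 and 6 (12.2%) lower, against 4.66% and 4.37% of all genes. Sema3c, 4.38-fold higher at E10.5, and Sema3g, 4.10-fold lower, differed most of these members. In the E11.5 bud, 4 members (8.16%) were higher than at E10.5 and 9 (18.4%) lower, against 10.7% and 9.93% of all genes. Among the 9 were Nrp2, Efnb3 and Ephb1. Both limma fits called 0% of genes at either step, and 8 members (2204 of all genes) had an unadjusted p under 0.05 at the step to E10.5 and 9 (3715) at the step to E11.5.

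**Figure D3:**
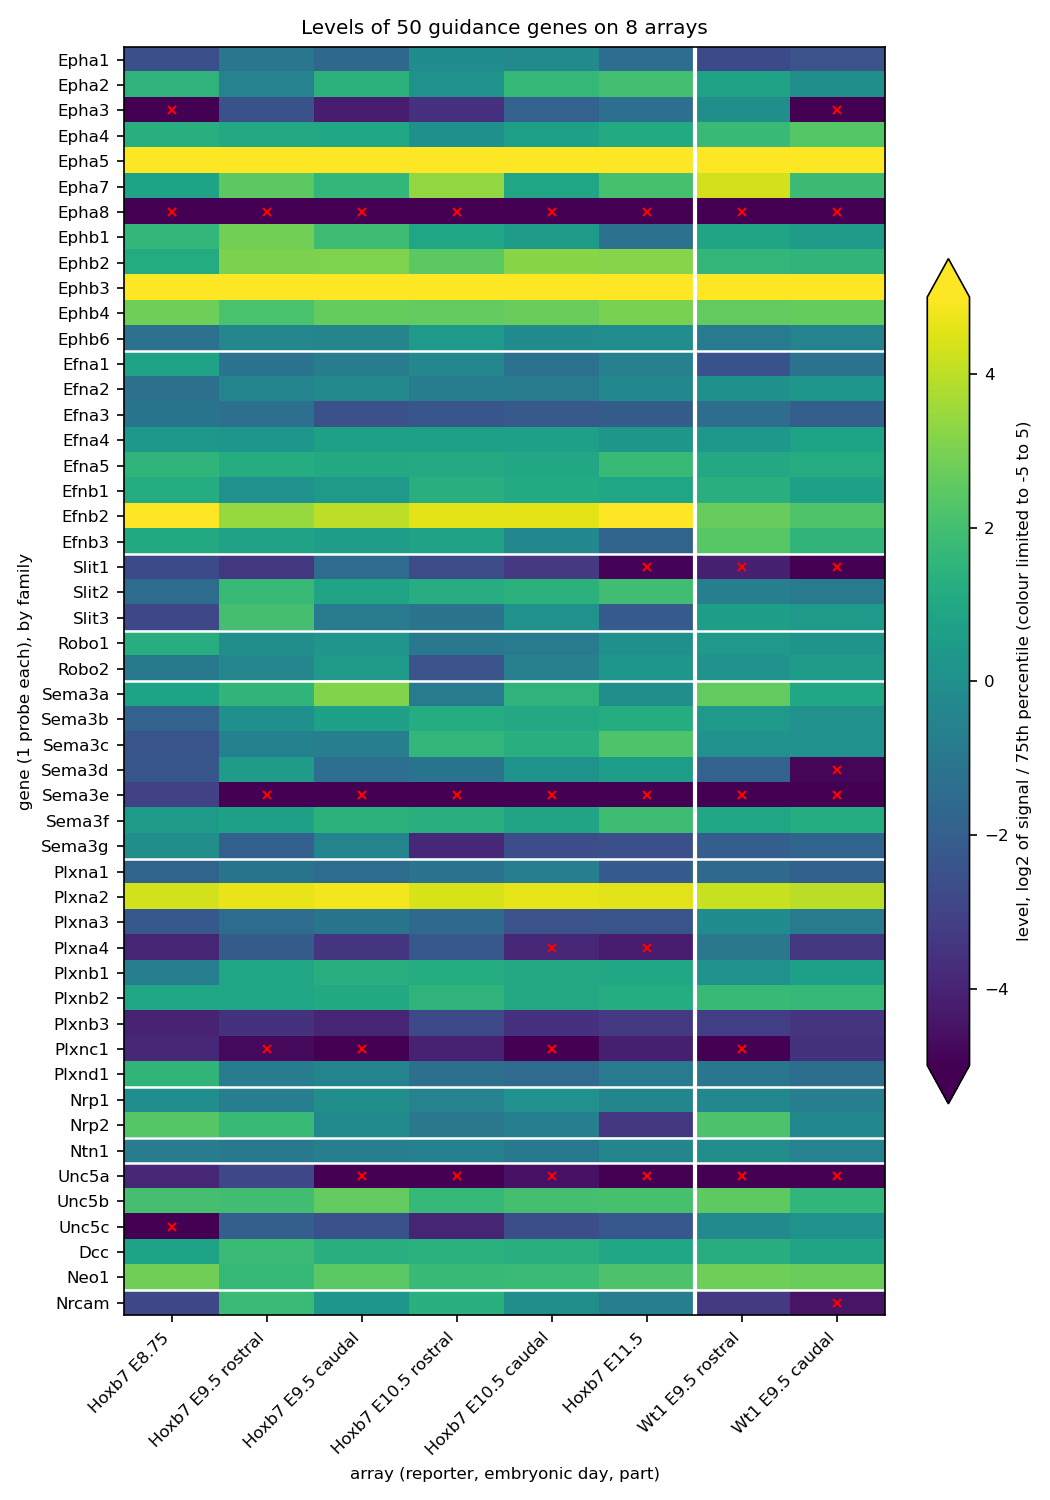
Level of each of the 50 genes (rows, grouped by family) on each array (columns, Hoxb7-GFP from E8.75 to E11.5, then Wt1-GFP at E9.5), in colour from -5 to 5 on the log2 scale relative to the array's 75th percentile, with red crosses for probes not well above background. Epha8 is crossed on all 8 arrays, Sema3e on all but E8.75, and Efnb2 is above 2 on every array.

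Of 12 Eph receptors, 3 were higher and 1 lower in E9.5 duct cells than in Wt1-GFP cells by 1 or more without overlap, and Ephb1 and Ephb2 had the largest of these differences. Ephb1, which binds B-class ephrins, had levels of 1.63 at E8.75, 2.89 rostrally and 1.88 caudally at E9.5, 0.92 and 0.45 at E10.5, and -1.26 at E11.5, beside 0.85 and 0.49 in rostral and caudal Wt1-GFP cells. It was highest at E9.5, where both arrays lay above both Wt1-GFP arrays, and the E11.5 bud was its lowest sample. The difference between E9.5 duct cells and Wt1-GFP cells was 1.71 (SE 0.27, adjusted p = 0.24, and 0.039 with the intensity trend). E10.5 was lower than E9.5 by a log2 difference of -1.70 (adjusted p = 0.54), and E11.5 lower than E10.5 by -1.94 (adjusted p = 0.29).
Ephb2, its close relative, had a level of 1.14 at E8.75, 3.01 and 3.06 in rostral and caudal duct cells at E9.5, 2.48 and 3.23 at E10.5, and 3.17 at E11.5, beside 1.64 and 1.54 in Wt1-GFP cells. All 5 Hoxb7-GFP arrays from E9.5 on were above both Wt1-GFP arrays and above E8.75. The difference was 1.45 against Wt1-GFP cells (SE 0.31, adjusted p = 0.29, and 0.054 with the trend, or 2.21 with slide row as a term) and 1.90 against E8.75 (SE 0.37, adjusted p = 0.24). Ephb1 thus lay lower at each later stage, while Ephb2 stayed within 2.48 to 3.23 from E9.5 to E11.5.

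Of the A-class receptors, Epha1 was higher in duct cells than in Wt1-GFP cells, and highest at E10.5. Its levels were -2.57 at E8.75, -1.08 and -1.66 at E9.5, -0.14 and -0.27 at E10.5 and -1.37 at E11.5, beside -2.76 and -2.45 in Wt1-GFP cells. Both E10.5 arrays were above every other array, and all duct arrays from E9.5 on were above Wt1-GFP cells, with a difference of 1.24 at E9.5 (SE 0.30, adjusted p = 0.32, or 0.62 with normexp background). The step to E10.5 was 1.16 (adjusted p = 0.61) and the step to E11.5 was -1.16 (adjusted p = 0.39). Epha4, which binds ephrins of both classes, had 1.05 and 0.97 in E9.5 duct cells, against 1.76 and 2.38 in Wt1-GFP cells. Its difference was -1.06 (SE 0.29, adjusted p = 0.34), and at other stages it was between 0.03 and 1.31, below both Wt1-GFP arrays.
Epha7 differed by position. It had 2.48 rostrally and 1.64 caudally at E9.5, 3.38 and 0.93 at E10.5, and 4.31 and 1.86 in Wt1-GFP cells, so that the rostral array was higher in each of 3 pairs. Its 2 dimmer probes were higher rostrally in the same 3 pairs, at -0.84 and -1.38, 0.09 and -1.73, and 0.97 and -1.06 for the brighter of them. E9.5 lay 1.25 above E8.75, where its level was 0.81 (adjusted p = 0.42).
Epha2 and Epha3 varied without a common order. Epha2 had 1.50 at E8.75, -0.58 and 1.41 at E9.5, 0.09 and 1.67 at E10.5, and 2.01 at E11.5, so the caudal duct array was the higher one at both split stages. In Wt1-GFP cells the rostral array was the higher one, at 0.74 against 0.00 caudally. Epha3 was not well above background at E8.75 and in caudal Wt1-GFP cells, and its levels on the other 6 arrays ran from -4.24 to -0.04, the highest in rostral Wt1-GFP cells. With the main background, E9.5 duct cells were at least 3.97-fold above E8.75 for Epha3 (adjusted p = 0.56). With normexp background that log2 difference was only 0.60.
Epha8 stayed between -6.79 and -5.91, not well above background on any array. Ephb4, the venous receptor of ephrin B2 in vessels, ran only from 2.15 to 2.99, and Ephb6, which lacks kinase activity, from -1.22 at E8.75 to 0.42 in rostral E10.5 duct cells.

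Of 8 ephrins, which are the membrane-bound ligands, Efnb2 was higher and Efnb3 lower in E9.5 duct cells than in Wt1-GFP cells by 1 or more without overlap, and the other 6 were neither. Efnb2, a ligand of EphB receptors and Epha4 that is also known as an arterial marker, had levels of 5.64 at E8.75, 3.44 and 4.02 at E9.5, 4.61 and 4.59 at E10.5 and 5.03 at E11.5, beside 2.69 and 2.23 in Wt1-GFP cells. All 6 Hoxb7-GFP arrays were above both Wt1-GFP arrays, and E9.5 was the lowest stage. E9.5 duct cells were 1.27 above Wt1-GFP cells (SE 0.34, adjusted p = 0.33) and lay below E8.75 by a log2 difference of -1.91 (SE 0.41, adjusted p = 0.25). A second Efnb2 probe was also higher in E9.5 duct cells, at 1.66 and 1.82, against -0.05 and 0.09 in Wt1-GFP cells, and lower than at E8.75, where it had 3.14. Its E11.5 level, 2.50, was below those at E10.5, 3.09 and 2.86, where the first probe was higher at E11.5. Cdh5, the endothelial cadherin, moved with the E8.75 level, at -2.06 and -1.23 in E9.5 duct cells against 2.61 at E8.75, and its part in the Efnb2 difference was not tested.
Efnb3, another EphB ligand, had 1.08 at E8.75, 0.75 and 0.56 at E9.5, 0.74 and -0.32 at E10.5 and -1.76 at E11.5, beside 2.40 and 1.52 in Wt1-GFP cells. Both Wt1-GFP arrays were above every Hoxb7-GFP array, and the E11.5 bud was the lowest. The reporter difference was -1.31 (SE 0.31, adjusted p = 0.31) and the step to E11.5 was -1.97 (SE 0.38, adjusted p = 0.30).
The A-class ephrins, which are anchored by a lipid, had smaller reporter differences. Efna1 had -1.19 and -0.80 in E9.5 duct cells, against 0.81 at E8.75 (a difference of -1.81, adjusted p = 0.35), and its lowest array was rostral Wt1-GFP, at -2.49. Efna2 to Efna5 and Efnb1 had no difference of 1 or more without overlap in any comparison. Efna4 ran from 0.25 to 0.81 and Efna5 from 0.95 to 1.79.

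All 3 Slits had a higher mean in E9.5 duct cells than in Wt1-GFP cells, and Slit1 and Slit2 by 1 or more without overlap, while neither Robo differed by that much. Slit2, a secreted repellent, had levels of -1.48 at E8.75, 1.78 rostrally and 0.85 caudally at E9.5, 1.23 and 1.43 at E10.5 and 1.93 at E11.5, beside -0.71 and -0.86 in Wt1-GFP cells. All 5 Hoxb7-GFP arrays from E9.5 on lay above both Wt1-GFP arrays and above E8.75. E9.5 duct cells exceeded Wt1-GFP cells by 2.10 (SE 0.36, 95% interval 1.07 to 3.13, adjusted p = 0.25, and 0.045 with the intensity trend). Over E8.75 the difference was 2.80 (SE 0.44, 6.94-fold, adjusted p = 0.22, and 0.049 with the trend), with the trend p between 0.035 and 0.13 over the alternatives tried.
The other Slits varied more between arrays. Slit1 was dim, at -3.36 and -1.49 in E9.5 duct cells, and not well above background in both Wt1-GFP samples and in the E11.5 bud. With the main background, duct cells were at least 3.23-fold higher than Wt1-GFP cells (adjusted p = 0.39). The log2 difference was 0.66 with normexp background, 0.93 without the caudal E9.5 duct array and 3.79 without the rostral one. Slit3 had -2.82 at E8.75, 2.06 rostrally and -0.86 caudally at E9.5, -1.16 and 0.15 at E10.5 and -2.12 at E11.5, beside 0.57 and 0.39 in Wt1-GFP cells. The rostral E9.5 duct array alone carried its E9.5 peak, the same array that held the most neural marker signal, and whether they are linked was not tested. Its difference over E8.75 was 3.42 with an SE of 1.39 (adjusted p = 0.35), and 1.68 without that array.
The Robo receptors of these ligands overlapped between the E9.5 groups. Robo1 had -0.06 and 0.22 in E9.5 duct cells, against 0.43 and 0.18 in Wt1-GFP cells. By its bright probe E9.5 differed from E8.75 (level 1.22) by -1.14 (adjusted p = 0.27), while a dim second probe was not well above background at E8.75 and above it at E9.5, so the direction at that step depends on the probe. Robo2, the Slit2 receptor named above, had -0.94 at E8.75, -0.39 and 0.40 at E9.5, -2.43 and -0.65 at E10.5 and 0.27 at E11.5, beside 0.09 and 0.49 in Wt1-GFP cells. Both E10.5 arrays were below both E9.5 arrays (-1.54, SE 0.42, adjusted p = 0.63, or -0.95 without the rostral E10.5 array), and E11.5 lay 1.81 above E10.5 (SE 0.51, adjusted p = 0.37). The brighter of its 2 other probes had the same order at these steps. The dimmest did not, since its caudal E10.5 level, -2.31, lay above both E9.5 arrays (-2.89 and -2.48) and above E11.5 (-2.92), while its rostral E10.5 value was not well above background. By all 3 probes the caudal duct array was the higher one at both split stages.

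By their brightest probes, 4 of 7 class 3 semaphorins were higher and 2 lower at E9.5 than at E8.75 by 1 or more. Of the lower ones, Sema3e was well above background at E8.75 only. Second probes of Sema3a and Sema3g did not repeat the differences of their brightest probes. That of Sema3a had -1.39 at E8.75, between its E9.5 levels of -2.09 and -0.79. That of Sema3g had -4.17 at E8.75, below its E9.5 levels of -3.69 and -3.71. That of Sema3c is given below. By its brightest probe, Sema3c went on to higher levels at each stage. Its levels were -2.39 at E8.75, -0.59 and -0.74 at E9.5, 1.62 and 1.32 at E10.5 and 2.24 at E11.5, beside 0.05 and 0.06 in Wt1-GFP cells. Each stage lay above the one before it with no overlap, and the E9.5 duct arrays lay below the Wt1-GFP arrays while the later ones lay above. The steps were 1.73 to E9.5 (SE 0.26, adjusted p = 0.21, and 0.055 with the trend, or 1.01 with normexp background) and 2.13 to E10.5 (SE 0.21, adjusted p = 0.52, and 0.14 with the trend). A dimmer Sema3c probe was not well above background at E8.75 and had -3.23 and -4.04 at E9.5, -0.23 and -1.10 at E10.5 and -0.72 at E11.5, so that it repeats the step to E10.5 but not the one to E11.5.
Sema3b had 0.04 and 0.71 in E9.5 duct cells, against -1.84 at E8.75, a difference of 2.21 (SE 0.42, adjusted p = 0.24), and stayed between 1.04 and 1.21 from E10.5 on. In Wt1-GFP cells Sema3b had 0.39 and 0.04, overlapping the E9.5 duct arrays. Sema3f was detected everywhere, from 0.46 at E8.75 to 1.88 at E11.5.
Sema3g ran the other way, with -0.05 at E8.75, -1.95 and -0.48 at E9.5, -3.88 and -2.62 at E10.5 and -2.55 at E11.5, beside -2.01 and -1.76 in Wt1-GFP cells. Both E10.5 arrays were below both E9.5 arrays (-2.03, SE 0.39, adjusted p = 0.56, or -1.02 with normexp background). A second Sema3g probe, well above background on 4 arrays, ranged over 0.64 only and does not show this difference.
Sema3d and Sema3e were near the limit of detection in some groups. Sema3d had 0.50 rostrally and -1.34 caudally in E9.5 duct cells, against -1.87 in rostral Wt1-GFP cells and a value not well above background in caudal ones, with a difference of 2.95 and an SE of 1.15 (adjusted p = 0.39), which was 1.35 with normexp background and 6.58 with slide row as a term. Sema3e, a direct ligand of Plxnd1 in vessels, was well above background at E8.75 only, at -3.04. With the main background, E9.5 duct cells lay at least 3.52-fold below that, while the log2 difference was -0.59 with normexp background. Sema3e entered the genes tested through that 1 array alone. The direction of its difference was thus set by the filter and is not read as a result.
Sema3a, known in mouse kidney for restraining bud branching, had its rostral and caudal arrays in opposite order in the 2 reporters. Its level was 0.80 at E8.75, 1.55 rostrally and 3.11 caudally at E9.5, -0.86 and 1.52 at E10.5 and -0.08 at E11.5, beside 2.58 rostrally and 0.98 caudally in Wt1-GFP cells. Both E10.5 arrays were below both E9.5 arrays (-2.00, SE 1.11, adjusted p = 0.78), by -0.81 without the rostral E10.5 array and -3.20 without the caudal one.

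**Figure D4:**
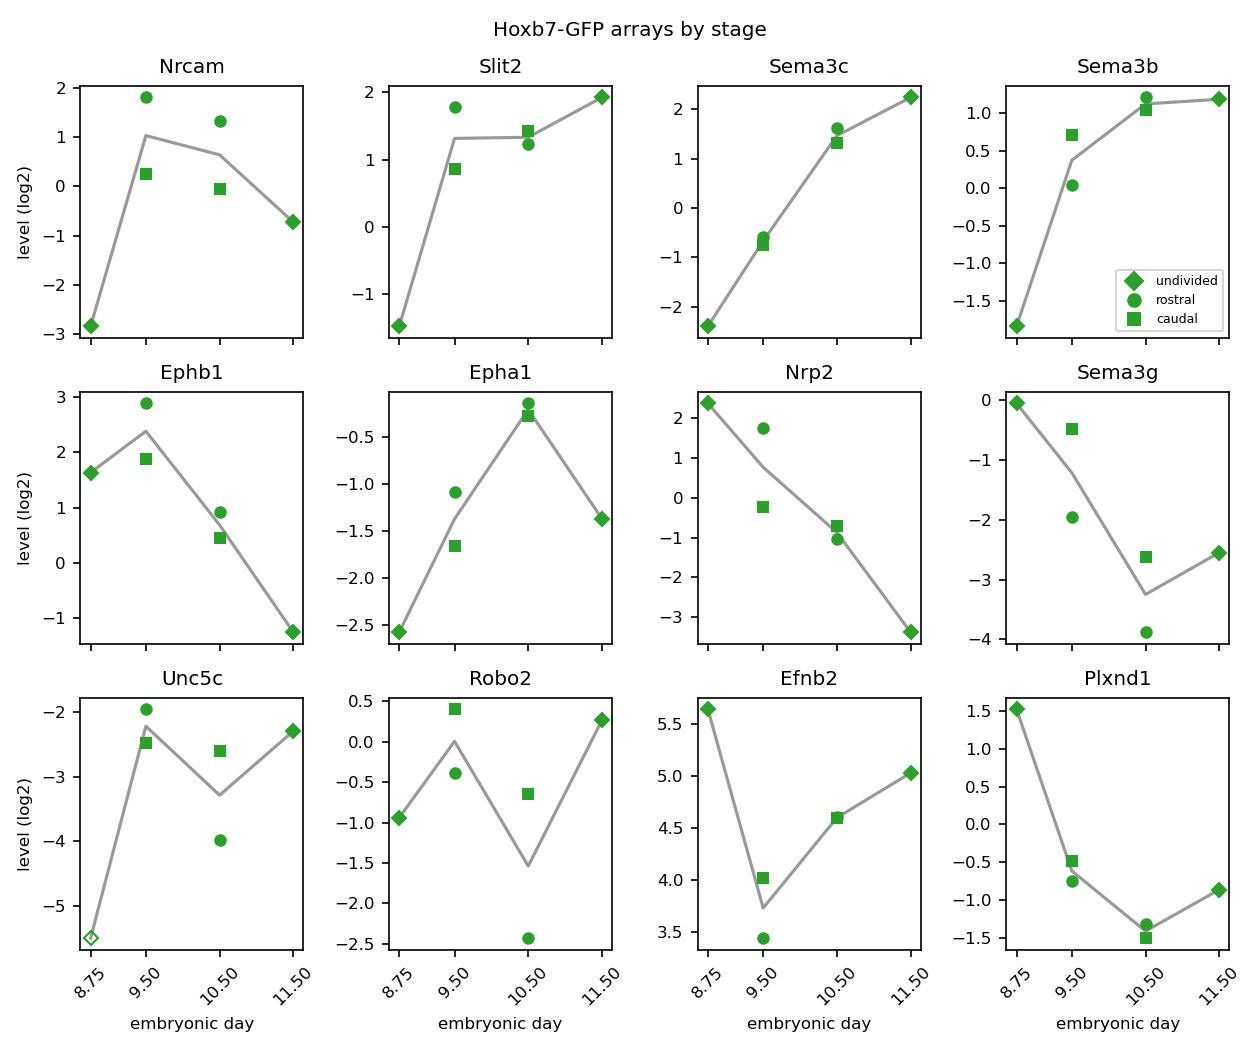
Level (y axis, log2 relative to the array's 75th percentile, with its own scale in each panel) of 12 members on the 6 Hoxb7-GFP arrays by embryonic day (x axis), with circles for rostral, squares for caudal and diamonds for undivided samples, open where not well above background, and a line through the stage means. Sema3c is higher at each later stage, reaching 2.24 at E11.5, while Nrp2 is lower, reaching -3.38.

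Neuropilins and plexins form the semaphorin receptors. By their brightest probes, none of the 2 neuropilins and 9 plexins differed between E9.5 duct and Wt1-GFP cells by 1 or more without overlap. For Plxna2 that probe is the one placed on another chromosome, and the dimmer probe on the gene's own chromosome had -0.90 and -1.46 in E9.5 duct cells, against 0.91 and -0.40 in Wt1-GFP cells, a difference of -1.43 without overlap. Nrp2, the preferred partner of Sema3f and Sema3c, had levels of 2.38 at E8.75, 1.77 and -0.23 at E9.5, -1.05 and -0.70 at E10.5 and -3.38 at E11.5, beside 2.22 rostrally and -0.35 caudally in Wt1-GFP cells. The stages did not overlap, and the E11.5 bud was lower than E10.5 by a log2 difference of -2.51 (SE 1.01, adjusted p = 0.43). That difference was -1.26 with normexp background, -3.83 without the rostral E10.5 array or with slide row as a term, and -1.19 without the caudal E10.5 array. Its second probe followed the same order, with 2.11 at E8.75, 1.95 and -0.32 at E9.5, -1.82 and -1.32 at E10.5 and -4.02 at E11.5. Nrp1, the partner of Sema3a and of the growth factor VEGF, ran only from -0.71 to 0.05.
Plxnd1, the plexin of vessels, had -0.75 and -0.48 in E9.5 duct cells, against 1.52 at E8.75, and stayed between -1.51 and -0.87 later and between -1.39 and -1.08 in Wt1-GFP cells. E8.75 was above every other array by both of its probes, and the E9.5 difference was -2.14 (SE 0.31, adjusted p = 0.21, and 0.055 with the trend). The endothelial marker Cdh5, given above, and Pecam1, at -1.97 and -1.71 in E9.5 duct cells against 0.75 at E8.75, moved with it. The part of endothelial cells in these differences was not tested.
Plxnb1, a receptor for class 4 semaphorins, took the opposite course, with 0.92 and 1.32 in E9.5 duct cells, against -0.71 at E8.75, a difference of 1.83 (SE 0.35, adjusted p = 0.24). Later duct arrays had 0.97 to 1.21, and Wt1-GFP cells 0.08 and 0.64, below all 5 of them. Plxnb2, which is known to promote bud branching in mice, was between 0.87 and 1.79, with its 2 highest levels in Wt1-GFP cells. Plxnb3 was dim throughout, from -4.05 to -2.79.
The A-class plexins, which pair with neuropilins, were mostly dim. Plxna4 had -2.06 rostrally and -3.45 caudally at E9.5, -2.24 and a value not well above background at E10.5, and -1.01 and -3.36 in Wt1-GFP cells. The rostral array was the higher one in all 3 pairs, as it was for the second Plxna4 probe. Plxna1 had -2.09 in the E11.5 bud, against -1.20 and -0.74 at E10.5 (-1.12, adjusted p = 0.40). Plxna3 had -1.48 and -1.09 in E9.5 duct cells, against -0.14 and -0.88 in Wt1-GFP cells. Plxnc1, the receptor of Sema7a, was well above background on 4 arrays.

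Of the 5 netrin receptors only Unc5c differed by 1 or more without overlap between E9.5 duct and Wt1-GFP cells. Ntn1 had levels between -0.96 and -0.07 over the 8 arrays, with -0.94 and -0.71 in E9.5 duct cells, against -0.07 and -0.58 in Wt1-GFP cells. Unc5c, a repulsive netrin receptor, was not well above background at E8.75, had -1.96 and -2.48 at E9.5, -3.98 and -2.60 at E10.5 and -2.30 at E11.5, beside -0.22 and 0.12 in Wt1-GFP cells. Both Wt1-GFP arrays were above every Hoxb7-GFP array. The reporter difference was -2.17 (SE 0.53, 95% interval -3.70 to -0.65, adjusted p = 0.32), and a second probe had -4.70, not well above background, and -3.27 in E9.5 duct cells, against -0.75 and -1.04 in Wt1-GFP cells. With the main background, E9.5 was at least 8.74-fold above E8.75 (adjusted p = 0.24). With normexp background that log2 difference was only 0.95.
Stroma and mesenchyme markers summed to 3.43 and 2.62 in E9.5 duct cells, against 6.40 and 5.56 in Wt1-GFP cells, and their part in the levels of Unc5c, Efnb3 and Epha4 was not tested. Unc5b, known as a vessel receptor, was detected on all arrays at 1.58 to 2.58. Unc5a was well above background on 2 arrays only, E8.75 at -3.84 and rostral E9.5 duct at -2.86. Neo1, a receptor for netrin and for RGM proteins, had 1.70 and 2.45 in E9.5 duct cells, against 2.79 and 2.71 in Wt1-GFP cells. The bright Dcc probe ran from 0.79 to 1.82, while the 2 dimmer probes on the gene's own chromosome were highest on the rostral E9.5 duct array, at -0.03 and -0.74.

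Nrcam showed the widest difference of all members between duct and Wt1-GFP cells. This L1-family adhesion molecule, which is known to bind neuropilin 2 in receptors for class 3 semaphorins, had levels of -2.83 at E8.75, 1.80 rostrally and 0.26 caudally at E9.5, 1.33 and -0.05 at E10.5 and -0.72 at E11.5, beside -3.32 in rostral Wt1-GFP cells and a value not well above background, -4.47, in caudal ones. All 5 Hoxb7-GFP arrays from E9.5 on were above E8.75 and above both Wt1-GFP arrays. The reporter difference was 4.93 (SE 0.22, 95% interval 4.29 to 5.57, adjusted p = 0.17, and 0.012 with the trend). E9.5 was 3.87 above E8.75 (SE 0.27, 14.6-fold, adjusted p = 0.19, and 0.046 with the trend), and E11.5 lay below E10.5 by a log2 difference of -1.36 (adjusted p = 0.31).
Most neural markers were higher on the rostral E9.5 duct array than in Wt1-GFP cells, and fewer were on the caudal one. Their 13 genes summed to 8.14 rostrally and 5.69 caudally in E9.5 duct cells, against 5.49 and 5.25 in Wt1-GFP cells, where Elavl4, at 4.53 to 5.30 on all 8 arrays, made up much of the sum. On the rostral E9.5 duct array 11 of the 13 were above both Wt1-GFP arrays, and on the caudal one 6 were. Elavl3, Sox1, Neurog2 and Isl1 were below both Wt1-GFP arrays on the caudal one. Dcx, a microtubule protein of young neurons, had 4.96 and 2.07 in E9.5 duct cells, against -0.79 and -2.71 in Wt1-GFP cells, and Tubb3, the neuronal tubulin, had 6.45 and 3.17, against 2.26 and 0.76. Their part in the Nrcam, Slit2 and Ephb1 differences was not tested. Without the rostral E9.5 duct array the Nrcam difference was 4.79 (trend adjusted p = 0.031), that of Slit2 1.63 (0.084) and that of Ephb1 1.42 (0.087).
The 250 bases before the annotated start of the members that passed with the trend are shown, since these genes stood higher together in duct cells. They come from RefSeq on GRCm38.p6, with matches to 4 motifs in capitals. The motif GCCNNNGGC is that of AP-2 factors, while AGATAA is bound by factors of the Gata family. The motif TAATTA is that of LIM homeodomain factors, and CAGGTG is an E-box. Each was searched on both strands.
Nrcam, chr12:44328635-44328884, plus strand: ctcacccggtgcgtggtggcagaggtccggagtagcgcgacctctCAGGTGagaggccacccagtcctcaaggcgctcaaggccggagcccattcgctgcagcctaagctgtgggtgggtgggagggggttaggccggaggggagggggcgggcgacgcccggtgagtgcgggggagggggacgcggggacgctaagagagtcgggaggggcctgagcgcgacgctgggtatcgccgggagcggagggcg
Slit2, chr5:47982905-47983154, plus strand: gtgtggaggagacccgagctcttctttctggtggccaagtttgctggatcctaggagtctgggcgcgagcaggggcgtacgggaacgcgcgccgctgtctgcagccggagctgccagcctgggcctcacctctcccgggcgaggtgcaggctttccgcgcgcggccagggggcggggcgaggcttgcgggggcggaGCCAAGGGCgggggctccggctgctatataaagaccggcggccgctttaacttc
Ephb1, chr9:102354694-102354943, minus strand: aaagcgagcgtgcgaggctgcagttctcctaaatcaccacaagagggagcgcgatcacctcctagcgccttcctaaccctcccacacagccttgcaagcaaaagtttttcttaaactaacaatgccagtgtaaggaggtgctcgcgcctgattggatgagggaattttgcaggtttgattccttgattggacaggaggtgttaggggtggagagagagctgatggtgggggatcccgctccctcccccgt
The Nrcam window held 1 CAGGTG, a match found in 17.2% of all 32851 windows and in 7 of 48 member windows (14.6%). The Slit2 window held 1 GCCNNNGGC, found in 13.7% of all windows and in 10 of the members' (20.8%), and the Ephb1 window held none of the 4 motifs. AGATAA was found in 9.99% of all windows and 6.25% of the members', and TAATTA in 4.84% and 4.17%. Windows were at hand for 42 of the 50 members, and their median number of CpG was 18, against 6 over all windows. A match is only a run of letters in this stretch.

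Position along the body axis was compared over 3 pairs, the rostral and caudal arrays of duct cells at E9.5 and E10.5 and of Wt1-GFP cells. Plxna4, Nrcam and Epha7 were higher rostrally in each pair, but were not the only such members. Among the others were Ephb1 (1.01, 0.47 and 0.35 in the pairs of E9.5 duct, E10.5 duct and Wt1-GFP cells) and Efnb3 (0.19, 1.06 and 0.88). Order alone, without a size, was not counted over all genes. By the rule of 1 or more without overlap, 2 of 49 members (4.08%) were higher rostrally over the 6 arrays, Epha7 at 1.92 (SE 0.43) and Plxna4 at 1.80 (SE 0.27), against 1.53% of all genes, and 0 were lower, against 0.613%. Both limma fits called 0% of genes, with an adjusted p of 0.73 for both members in the plain fit, and 5 members and 2005 of all genes had an unadjusted p under 0.05. Plxna4 differed by 1.39, 1.67 and 2.35 in the pairs of E9.5 duct, E10.5 duct and Wt1-GFP cells, and Nrcam by 1.55, 1.38 and 1.15. These 2 members (4.08%) were higher rostrally by 1 or more in all 3 pairs, as were 0.596% of all genes, and 0 members were higher caudally in all 3, as were 0.25%. The caudal Wt1-GFP value of Nrcam was not well above background. With such values raised to the dimmest well-above level of their array, its Wt1-GFP pair differed by 0.96, which left Plxna4 alone (2.04% of members), against 0.257% of all genes. With normexp background the fitted Plxna4 difference was 0.75. The Epha7 pairs differed by 0.84, 2.45 and 2.46. The E10.5 pair lay across both slide rows, while the other pairs lay within 1 row each.
Other members changed order between reporters. The rostral minus caudal difference of Sema3a was -1.57 and -2.37 in duct cells at E9.5 and E10.5, against 1.60 in Wt1-GFP cells. Its second probe gave -2.09 rostrally and -0.79 caudally at E9.5, -3.70 and -2.11 at E10.5, and -0.54 and -2.08 in Wt1-GFP cells, the same directions. Epha2 and Sema3g were picked after their values were seen. Epha2 differed by -1.99 and -1.59 in duct cells and 0.75 in Wt1-GFP cells, and Sema3g by -1.47, -1.26 and -0.24. In a fit of the interaction of position with reporter, 0 of 49 members passed, as did 0 of 29544 genes (1 with the trend), and the lowest adjusted p of a member was 0.81.

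**Figure D5:**
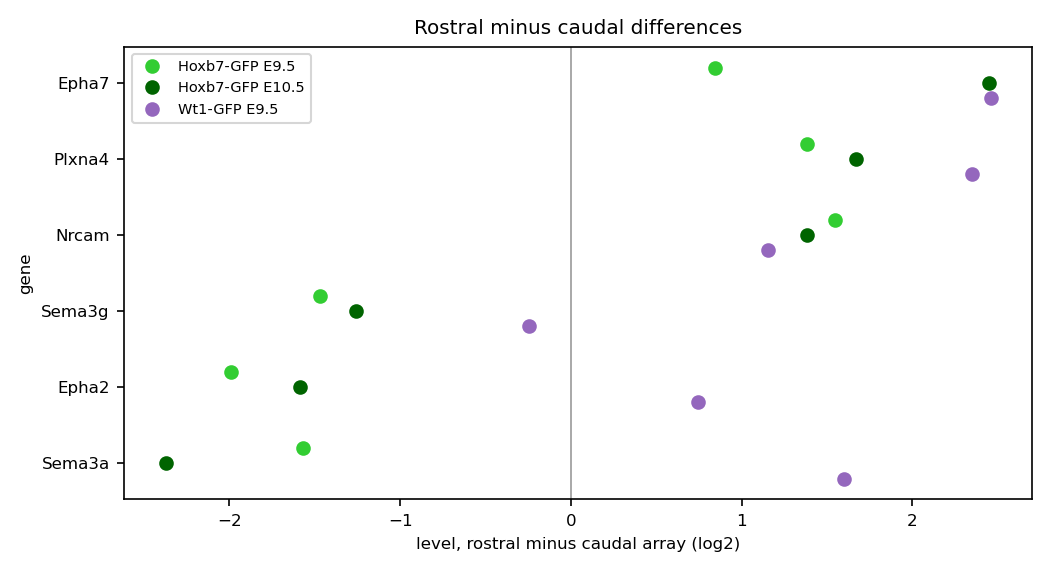
Difference in level, rostral minus caudal array (x axis, log2), of 6 members (rows) for the pairs of E9.5 duct cells (light green), E10.5 duct cells (dark green) and E9.5 Wt1-GFP cells (purple). Members shown differed by 1 or more in the same direction in both duct pairs, except Epha7 (0.84 at E9.5), which was added by choice. Epha7, Plxna4 and Nrcam lie right of 0 in all 3 pairs, and Sema3a lies at -1.57 and -2.37 in duct cells and at 1.60 in Wt1-GFP cells.

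Other guidance genes were read from a list of 58 genes of the same pathways, of which 56 were tested. In E9.5 duct cells against Wt1-GFP cells 13 were higher and 4 lower by the rule of 1 or more without overlap (23.2% and 7.14%, against 7.76% and 5.57% of all genes), 0 passed in the plain fit and 5 passed with the trend, as did 2.14% of all genes. Those 5 were the semaphorins Sema4d, Sema4f and Sema5b and the adhesion molecule L1cam, all higher, and Mical1, an enzyme that acts on actin downstream of plexins, which was lower. Sema4d, the main ligand of Plxnb1, had 1.27 and 1.64 in E9.5 duct cells, against -1.55 and -1.36 in Wt1-GFP cells, and all later duct arrays were above both Wt1-GFP arrays. L1cam, a relative of Nrcam, had -0.03 and -1.32 in E9.5 duct cells and was not well above background in both Wt1-GFP samples, a difference of at least 10.9-fold. Mical1 had 0.10 and -0.58 in E9.5 duct cells, against 1.96 and 1.72 in Wt1-GFP cells. The other genes of the list with a difference of 2 or more were Cntn2, Unc5d, Srgap3 and Nfasc, which were higher, and Ntn4, Ntn3 and Flrt3, which were lower. Ntn4 was well above background on only 1 of 8 arrays, with -6.54 and -6.89 in E9.5 duct cells, against -4.81 and -2.51 in Wt1-GFP cells. It entered the genes tested through that array alone, so its direction was set by the filter. Cntn2, an adhesion molecule of axons, had 2.86 rostrally and -2.38 caudally in E9.5 duct cells and was not well above background in Wt1-GFP cells. Between E9.5 and E8.75, 13 were higher and 4 lower at E9.5 (23.2% and 7.14%, against 11.8% and 10.7% of all genes), and 0 passed in either fit, with 11 at an unadjusted p under 0.05.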

How the data were processed

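Total RNA of sorted cells (10 ng, amplified with WT-Ovation Pico, Cy3) was hybridised to 8 1-colour Agilent arrays on 1 slide with 1 scan time, 4 arrays in each of 2 slide rows. Per the file headers, each deposited intensity was corrected for background and trend within its array by Feature Extraction, version 10.7.3.1 in the submitters' processing notes. The deposited series matrix holds log2 values, which followed the scaled scanner values at r of 0.9999 and were used as an alternative.

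Of 62976 spots, 59305 were not controls. Outlier-flagged spots were left out and repeated spots averaged (55663 probes kept, 18 dropped). Each array was scaled to its 75th percentile on the log2 scale. limma 3.58.1 in R 4.3.3 fitted 29544 gene names with 5 group terms and a position term (0.5 rostral, -0.5 caudal), which left 2 residual degrees of freedom. P-values were adjusted by the Benjamini-Hochberg method over all of them (threshold 0.05), with 1 prior variance (main) or one that follows intensity. Folds were taken from the fitted difference. Where the dimmer group was not well above background on any of its arrays, the fold is a lower bound ("at least"). It was taken from the dimmest well-above level of each array (-5.35 to -3.95). Such a bound holds for the main background only and can be smaller with normexp background. Precision is limited by the small number of arrays. By the rule for naming, fitted differences are given for members at 1 or more without overlap between groups, and for other guidance genes at 2 or more between reporters; the remaining members have levels. Members and lists were chosen with earlier results of these data known. Alternatives were background, normalization, filters, probe choice, slide row, position term and leaving out each array. Promoter windows are from RefSeq, GRCm38.p6, and probe positions are those of the array design (mm9).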

Additional observations from a re-analysis of the deposited data

Results flagged for a closer look

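The rostral minus caudal difference of Sema3a had opposite signs in the 2 reporters: -1.57 in E9.5 duct cells and -2.37 in E10.5 duct cells, against 1.60 in Wt1-GFP cells. Each pair is 1 array against 1 array, and the E10.5 pair lay across both slide rows. The interaction of position with reporter gave Sema3a an unadjusted p of 0.010 and an adjusted p of 0.81 in the limma fit over all genes, so the difference between reporters did not pass. Per the labels, Wt1-GFP samples came from parts of the embryo, while the source of the E9.5 and E10.5 Hoxb7-GFP samples is named only by an abbreviation.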

How the results depend on the processing

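The alternatives with the intensity trend as base were chosen after seeing the data. In the reporter comparison 0 members passed in the plain fit, 3 with the trend and 1 with normexp background; over all genes the counts were 0, 632 and 207, and 8 without the position term. At E9.5 against E8.75 they were 0, 2 and 1 members, and 0, 367, 167 and 16 genes. With the trend as base, the 3 reporter members became 1 with quantile normalization, 0 with slide row as a block and 5 with the mean of all probes, and 0 to 3 when 1 array was left out. The 2 members at E9.5 against E8.75 became 0 without the position term, with quantile normalization or with the row block, 5 with normexp, 7 among probes well above background on all 8 arrays, 4 with no filter and 8 with floored values, and 0 to 5 when 1 array was left out. The Robo1 difference over E8.75 was 0.80 with the mean of all probes. At E11.5 against E10.5, Epha3 was -1.55 and Sema3d -0.70 with the row block. When 1 array was left out, Epha3 ran from -1.55 to 4.26 and Sema3d from -0.70 to 2.93, the lowest without the rostral E10.5 array and the highest without the caudal one. At this step the row block gave the same values as leaving out the rostral E10.5 array, since only the E10.5 pair spans both slide rows. At E10.5 against E9.5 it gave those of leaving out the caudal E10.5 array, as for Sema3a (-3.20 with either). These alternatives are therefore not separate checks. Why the E10.5 arrays differ was not tested. No other named difference changed sign. Of 57 named differences, 34 moved by over 1.5 times under at least 1 alternative: 19 with normexp background, 11 with the row block and 18 when 1 array was left out. Raising dim values to each array's dimmest well-above level before counting position pairs was chosen after seeing the data; it left 1 of the 2 members that were higher rostrally by 1 or more in all 3 pairs. No paired analysis was possible because the labels carry no replicate numbers; the position term pairs rostral with rostral. The deposited matrix was not run with the trend. Probes near background limit Slit1, Sema3d, Sema3e, Epha3, Plxna4, Plxnc1, Unc5a and Unc5c.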
